A study of Mus musculus with 34 samples.

Results

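The sarcomere is the contractile unit of striated muscle. In it, thick filaments of myosin pull on thin filaments of actin, troponin on the thin filament switches the pull on when calcium binds, and titin spans from the Z-disc to the M-band as a molecular spring. Heart muscle uses its own set of isoforms for most of these proteins, while the hepatocytes that make up most of the liver have no sarcomeres. The expression of 10 genes for the cardiac set was followed across a series of mouse RNA sequencing libraries: Myh6, Myh7, Myl2, Myl3, Mybpc3 and Ttn of the thick filament and the titin filament, and Actc1, Tnnt2, Tnni3 and Tnnc1 of the thin filament. They were chosen by name, as cardiac filament genes, with earlier results of these data known, and are 10 of the 51368 genes in the expression table. Each symbol matched exactly 1 gene identifier.

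All RNA came from 1 wild-type C57BL/6J mouse aged 12 weeks, for which the labels disagree on sex (female in some fields, male in one). The liver RNA was made into 33 libraries and the heart RNA into 1. The heart library and 6 of the liver libraries were unselected, which means that ribosomal RNA (rRNA) was left in. The unselected liver libraries numbered 3 in batch 1, the batch of the heart library, and 3 in batch 2, each from 20 ng of RNA. The other 27 liver libraries were made from 200 ng: 9 by polyA selection, which captures RNA by its poly(A) tail (batch 1), 9 by rRNA pull-down, which removes rRNA with capture probes (batch 2), and 9 by rRNA digestion, which degrades rRNA bound to DNA probes (batch 2). Each set of 9 covered 3 PCR ramp rates by 3 fragment lengths, so its libraries are not identical repeats. With 1 animal, all p-values here measure the spread between library preparations, which is technical, not between mice, and the heart has no replicate.

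Total counts per library ran from 19873384 to 41396087, with 22292139 in heart, apart from 1 pull-down library (slow ramp, long fragments) with 1126377. Genes for rRNA, with Lars2, took 80.6% of the heart counts and 84.8 to 85.7% of the unselected liver counts, 14.2 to 24.5% after pull-down, and at most 1.12% after digestion or polyA selection. Levels across libraries are given as normalised CPM, counts divided by a library size that was scaled with the trimmed mean of M-values (TMM). Counting intervals below are exact 95% Poisson or Clopper-Pearson intervals and cover counting error only.

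The heart label was checked against markers. All 8 cardiomyocyte markers, 5 of which are among the 10 genes, were detected at 10 counts or more, among them Ryr2 (17212 counts), the calcium release channel, and Pln (14727 counts), the regulator of the calcium pump. All 4 ventricular markers were detected, with Irx4 at 96 counts and Hey2 at 20 beside Myl2 and Myl3 themselves. Of 4 atrial markers only Nppa (178 counts) was, while Myl7 and Sln were at 0 and Myl4 had 2 counts. Of 11 skeletal muscle markers 4 were detected, led by Ckm (4658 counts), and Myh2, Myh4, Tnni2 and Mylpf were at 0. Fibroblast and endothelial markers were all present as well (5 of 5 and 4 of 4), as were 4 of 5 smooth muscle markers (901 counts in all) and 5 of 5 red cell markers (3682 counts). All 10 hepatocyte markers were also present in the heart library, at 0.266 to 0.435% of their level in unselected batch 1 liver (1579 counts in heart against 276232 to 294802 in each liver library). Their source was not tested. In bulk tissue, fewer cells of a type and less RNA per cell cannot be told apart.

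The 10 genes held 445507 counts in the heart library, which was 2.00% of all its counts and 10.3% once rRNA genes and Lars2 were set aside. Ttn and Myh6 made up 78.6% of them. Of the 10 genes, 9 ranked among the 100 genes with the most counts, and Myh7 ranked 692. Per kb of the longest protein-coding transcript, the order in heart was Myl2, Myh6, Actc1, Tnnt2, Myl3, Tnni3, Tnnc1, Mybpc3, Ttn and Myh7. The counting intervals of neighbours in this order did not overlap, although the gaps were small at the top (Myl2 over Myh6 1.11-fold, Myh6 over Actc1 1.04-fold), and 1 library gives no spread between preparations. The distance from Myl2 to Myh7 was 200.3-fold per kb. With all annotated exons merged as gene length it was smaller, at 9762 against 77.3 counts per kb. In normalised CPM, which is not per length, Ttn stood at 27697 in heart, Myh6 at 14079 and Myh7 at 79.5, with the other 7 genes between 410 for Tnnc1 and 3258 for Actc1. The order depends on the length used: with all annotated exons merged, Tnnt2 went from rank 4 to rank 8 and Myl2 from rank 1 to rank 3.

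**Figure D1:**
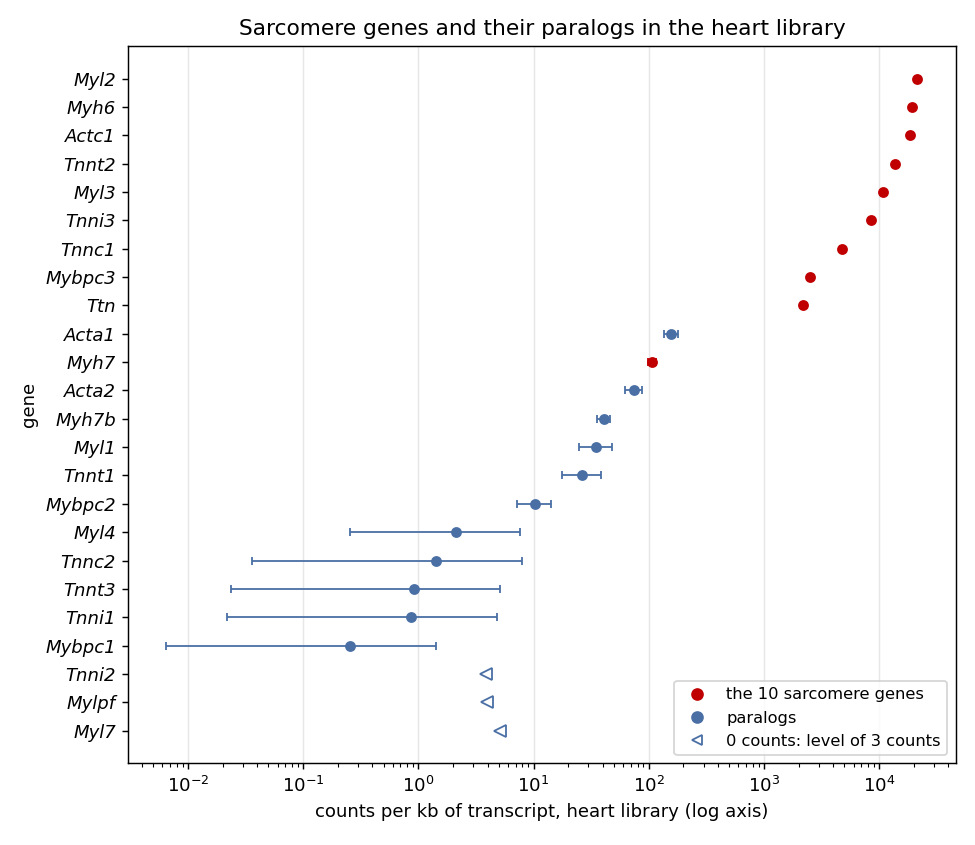
Counts per kb of the longest protein-coding transcript in the heart library (log axis) for the 10 sarcomere genes (red) and their paralogs (blue), with exact 95% Poisson intervals as bars; open triangles mark genes with 0 counts at the level that 3 counts would give. Of the red points, 9 lie above every blue point, and Myh7 lies between Acta1 and Acta2.

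Among the motor proteins, the heart library was dominated by Myh6. Myh6 encodes the alpha myosin heavy chain, the fast cardiac motor of the adult mouse ventricle, and Myh7 encodes the slower beta chain, which mouse ventricle uses before birth. They lie next to each other on GRCm38 chromosome 14, both on the minus strand, Myh6 at 54941921 to 54966927 and Myh7 at 54970684 to 54994626. Myh6 had 117994 counts in heart (19302 per kb, interval 19192 to 19413) and Myh7 had 666 (107 per kb, interval 98.9 to 115). The Myh6 to Myh7 ratio per kb was 181 (interval 167 to 195).

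The pair is close in sequence, which bears on how reads were divided between them. Their coding sequences align with 91.7% identical bases, and 1966 of the 6083 stretches of 31 bases (32.3%) in the longest Myh6 transcript also occur in a Myh7 transcript. Apart from 4 shared by Myh6 and Myh7b, another muscle myosin, no other pair of a gene and its paralog compared here shared any. The longest identical run inside a single exon is shown first, since a read lying within it fits both genes equally. It is 200 bases long, in exon 36 of 39 of Myh6 at chr14:54944348-54944547 and exon 38 of 41 of Myh7 at chr14:54972758-54972957 (minus strand, GRCm38), and no base differs, so no capitals appear. The window of 60 coding bases that differs most is shown for contrast, with the 24 differing bases in capitals. It lies in exon 25 of Myh6 at chr14:54952277-54952336 and exon 27 of Myh7 at chr14:54980352-54980411. Over the 3611 such windows the median number of differing bases was 2.
Myh6 and Myh7, identical run: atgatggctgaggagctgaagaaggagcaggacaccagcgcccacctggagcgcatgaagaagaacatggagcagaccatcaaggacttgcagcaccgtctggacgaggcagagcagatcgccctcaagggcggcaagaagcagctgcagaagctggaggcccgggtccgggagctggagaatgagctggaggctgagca
Myh6, most different window: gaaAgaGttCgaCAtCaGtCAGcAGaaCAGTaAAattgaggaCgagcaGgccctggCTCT
Myh7, most different window: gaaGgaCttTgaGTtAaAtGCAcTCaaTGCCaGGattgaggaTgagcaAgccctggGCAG

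Myh7 also overlaps genes on the opposite strand, of which Mhrt had 190 counts in heart and Gm31251 had 209. How strand was counted is not given in the sources used here. The part of reads from shared stretches, or from the opposite strand, in the 666 counts of Myh7 was not tested. With all exons merged as gene length, the Myh6 to Myh7 ratio was 227 in place of 181.

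In liver both motors were near the floor. Myh6 had 0 counts in all 6 unselected liver libraries, in 8 of 9 polyA libraries (2 counts in the other), in 8 of 9 pull-down libraries and in 8 of 9 digestion libraries (1 count in each of the others). Myh7 had 0 counts in 31 of the 33 liver libraries, and 1 count in a single pull-down and a single digestion library. A liver Myh6 to Myh7 ratio therefore has no meaning at this depth. Against the 3 batch 1 liver libraries together, the heart level of Myh6 was at least 68568-fold higher, and that of Myh7 at least 387-fold higher, taking 3 counts over those libraries as the limit that a count of 0 allows.

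The light chains wrap the neck of the myosin head: Myl2 encodes the ventricular regulatory chain and Myl3 the ventricular essential chain, which slow skeletal muscle also uses. Myl2 is at 122100951 to 122113472 on chromosome 5 and Myl3 at 110741861 to 110769798 on chromosome 9, both on the plus strand. In heart Myl2 had 19036 counts (21413 per kb, interval 21110 to 21719) and Myl3 had 10067 (10744 per kb, interval 10535 to 10956), so Myl2 stood 1.99-fold above Myl3 per kb. The atrial partners were absent or nearly so: Myl7 had 0 counts and Myl4 had 2, which put Myl2 at least 4211-fold above Myl7 and Myl3 5066-fold above Myl4 (interval 1402 to 41835). With all exons merged as gene length these were at least 1920-fold for Myl2 and 11419-fold for Myl3. The fast skeletal chains were low too, with Mylpf at 0 counts and Myl1 at 38, a Myl3 to Myl1 ratio of 306 (interval 223 to 433).

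In liver, Myl2 had 1 count in each of 2 libraries (1 unselected of batch 2 and 1 polyA) and 0 in the other 31, and Myl3 had 1 count in each of 6 libraries. The atrial chain Myl4 and the fast skeletal chain Mylpf were higher there, in the opposite order to heart, while Myl1 was as rare as Myl3 (1 count against 2 over the polyA libraries). Myl4 summed to 182 counts over the polyA libraries against 2 for Myl3, and Mylpf to 200 against 1 for Myl2. Per kb, the liver ratio of Myl3 to Myl4 was 0.0111 after polyA selection (interval 0.00133 to 0.0405), and 0.0249 with merged exons. Heart against batch 1 liver, Myl2 was at least 11062-fold and Myl3 at least 5850-fold higher.

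Mybpc3 and Ttn make up the rest of the thick filament system. Mybpc3 (chromosome 2, 91118144 to 91136516, plus strand) encodes cardiac myosin-binding protein C, a brake on the myosin heads, and Ttn (chromosome 2, 76703980 to 76982547, minus strand) encodes titin. The annotated Ttn transcript used here has 347 exons and 106.8 kb, against 0.721 to 6.23 kb for the other 9 genes. Mybpc3 had 10565 counts in heart (2538 per kb, interval 2490 to 2587). Its slow skeletal paralog Mybpc1 had 1 count and its fast skeletal paralog Mybpc2 had 37, a Mybpc3 to Mybpc2 ratio of 248 per kb (interval 180 to 352). Ttn had the most counts of the 10 genes, 232124, and was still second lowest per kb at 2173 (interval 2164 to 2182). Per kb Myh6 stood 8.88-fold above Ttn (interval 8.82 to 8.95). In the 6 unselected liver libraries Mybpc3 was at 0, and it had 0 to 4 counts in each selected one.

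Of the thin filament, Actc1 (chromosome 2, 114047282 to 114053548, minus strand) encodes cardiac alpha-actin. It had 27304 counts in heart (18536 per kb, interval 18317 to 18757). The skeletal actin Acta1 had 226 counts and the smooth muscle actin Acta2 had 151, so the ratio per kb was 119 to Acta1 (interval 104 to 136) and 250 to Acta2 (interval 213 to 295). The 3 genes shared no stretch of 31 bases, with 86.3% and 82.6% identical coding bases. In liver the order was turned round: over the polyA libraries Acta2 summed to 1200 counts and Actc1 to 46, a ratio per kb of 0.0530 (interval 0.0386 to 0.0711), with 0.0444 after pull-down and 0.0672 after digestion. Actc1 had 1 to 8 counts in each polyA library, 0 to 5 after pull-down and 2 to 9 after digestion. In the unselected libraries it had 2, 0 and 0 counts in batch 1 and 1, 0 and 2 in batch 2.

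The troponin complex has 3 subunits: troponin T (Tnnt2) ties it to tropomyosin, troponin I (Tnni3) blocks the actin-myosin contact, and troponin C (Tnnc1) binds the calcium. Tnnt2 is at 135836354 to 135852260 on chromosome 1 (plus strand), Tnni3 at 4518305 to 4524229 on chromosome 7 (minus strand) and Tnnc1 at 31208312 to 31211729 on chromosome 14 (plus strand). In heart Tnnt2 had 16533 counts (13778 per kb, interval 13568 to 13989), Tnni3 had 7781 (8532 per kb, interval 8343 to 8724) and Tnnc1 had 3437 (4767 per kb, interval 4609 to 4929). The cardiac forms stood far above the skeletal ones. Tnnt2 was 521-fold above Tnnt1 per kb (28 counts, interval 360 to 784), and 168-fold with all exons merged as gene length. The other skeletal troponins had 1 count (Tnnt3, Tnni1, Tnnc2) or 0 (Tnni2), which puts Tnni3 at least 2184-fold above Tnni2. The fetal troponin I, Tnni1, with its single count, gave a Tnni3 to Tnni1 ratio of 9812 whose interval ran from 1760 to 387585.

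In liver the troponins and Actc1 were the highest of the 10 genes per kb in each selected group, with Tnnc1 first. Summed over the polyA libraries there were 109.6 counts per kb for Tnnc1, 70.2 for Tnni3, 44.2 for Tnnt2 and 31.2 for Actc1, and at most 2.64 for any of the other 6 genes. These values depend on the length used. With all exons merged Tnnt2 is 7.752 kb long in place of 1.2 kb, which puts it below Actc1 per kb. In the unselected libraries Tnnt2 had 0, 1 and 1 counts in batch 1 and none in batch 2, Tnni3 none in batch 1 and 1 in a single batch 2 library, and Tnnc1 had 1, 1 and 0 in batch 1 and 1, 0 and 0 in batch 2. After polyA selection Tnnc1 had 4 to 12 counts in each library (median 9), Tnni3 had 3 to 12 (median 6) and Tnnt2 had 2 to 9 (median 5), with no library at 0 for any of the 3. After digestion the ranges were 1 to 7, 0 to 5 and 1 to 11, and after pull-down 0 to 5, 0 to 4 and 0 to 9. Beside Tnnt2, the slow skeletal troponin T gene Tnnt1 had 32 to 63 counts in each polyA library, so the Tnnt2 to Tnnt1 ratio per kb was 0.110 (interval 0.0807 to 0.146) in polyA liver against 521 in heart (0.0353 against 168 with merged exons). Some of these liver values have an overlapping gene to be named with them. Tnni3 overlaps Dnaaf3 on the same strand, which had at most 17 counts in a liver library. On the opposite strand, Actc1 overlaps A530058N18Rik (at most 18.6 counts in a liver library) and Myl3 overlaps Pth1r (at most 373). Tnnc1 lies inside the span of Nisch on the opposite strand, and Nisch had 2821 to 6890 counts in each polyA library. The normalised level of Nisch was 101 ± 11.8 CPM after polyA selection, 114 ± 4.53 after digestion and 52.9 ± 9.69 after pull-down (SD, n = 9 each), and the part of any of these genes in the counts of its partner was not tested.

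All 10 genes had more counts in heart than in any liver library, and the sequence around the start sites of 8 of them was searched for letters known from muscle promoters. RefSeq windows (GRCm38.p6) run from 250 bases before to 50 bases after a start site, and both strands were searched. The windows used for these 8 lay at most 0.092 kb from the start of the transcript used here. The nearest window for Myl2 was 7.79 kb away and was left out of the counts. The letters CATTCC, known as the M-CAT element, were found in 5 of 8 windows (Myh6, Myh7, Tnnc1, Myl3 and Ttn), against 14.7% of all 32851 windows. The CArG box was found in Actc1 and Myl3 (1.63% of all windows), and the MEF2 element in Mybpc3 and Ttn (3.19%). The letters TATAAA were found in Myh6 and Actc1 (13.6%), in both after the start site. AGATAA, of the kind that GATA factors bind, was found in 0 of 8 and in 11.2% of all windows. Only these letters were searched, so related forms, such as the TGATAA within the Mybpc3 line below, were not counted. The 4 genes with such a match in the last 100 bases before the start site are printed with the match in capitals and annotated exon bases left out. A match is a description of the letters, not evidence that a factor binds there. The positions are Tnnc1 chr14:31208212-31208311, Actc1 chr2:114052888-114052975 (minus strand), Myl3 chr9:110763578-110763645 and Mybpc3 chr2:91118044-91118143. Each line holds a single motif, so no capitals overlap.
Tnnc1, CATTCC on the other strand: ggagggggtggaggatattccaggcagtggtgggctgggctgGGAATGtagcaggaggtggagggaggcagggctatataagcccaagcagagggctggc
Actc1, CArG box: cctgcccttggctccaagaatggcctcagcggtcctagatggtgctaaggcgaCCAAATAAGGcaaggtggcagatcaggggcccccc
Myl3, CArG box: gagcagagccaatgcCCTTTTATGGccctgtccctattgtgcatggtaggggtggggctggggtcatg
Mybpc3, MEF2 element: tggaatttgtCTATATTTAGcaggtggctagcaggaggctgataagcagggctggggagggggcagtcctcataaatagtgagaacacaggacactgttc

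The heart library was next compared with the 3 unselected liver libraries of its batch by edgeR's quasi-likelihood test with Benjamini-Hochberg adjustment. All 10 genes entered the test and all 10 were higher in heart at an adjusted p under 0.05, where 35.5% of the 12828 genes tested were higher. The 10 genes entered because they are high in heart, so a count of 10 of 10 is not support by itself. With a single heart library the spread comes from the liver libraries alone, and the heart library is assumed to vary like them. The standard errors and p-values below therefore hold no spread between heart preparations and do not measure how firm a heart difference is. By fold, all 10 stood at least 10-fold above the pooled batch 1 liver counts, a size that 7.36% of the genes tested reached. Myh6, Myh7, Tnni3, Myl2, Myl3 and Mybpc3 had 0 counts in batch 1 liver, so their fitted log2 differences depend on how the fit treats 0. With that limit, the median difference of the 10 genes was 15.46 on the log2 scale, against 0.02 over all genes tested. With library totals in place of TMM the latter was 0.54, 51.5% of genes were higher, and so were all 10.

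For the genes with counts in batch 1 liver a ratio can be given. Ttn had 232124 counts in heart and 5, 3 and 2 in the liver libraries, a 40467-fold difference (interval 22004 to 84388; log2 difference 15.42, SE 0.07, edgeR adjusted p = 7.23e-30). Actc1 stood 23800-fold above liver (interval 6588 to 196534); its 2 liver counts were in 1 library, without which it is at 0 in liver and the fitted log2 difference went from 14.49 to 17.34. The other ratio of that size was for Tnnt2, 14411-fold (2 counts, interval 3989 to 119008). Tnnc1 had the smallest such ratio, 2996-fold (2 counts, interval 828.7 to 24748; log2 difference 11.50, SE 0.14, edgeR adjusted p = 1.54e-23). For the genes at 0 in batch 1 liver the bound is at least 6139-fold for Mybpc3 and at least 4522-fold for Tnni3, beside those given above. Bounds set by 0 counts rank the heart counts, not the liver levels.

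**Figure D2:**
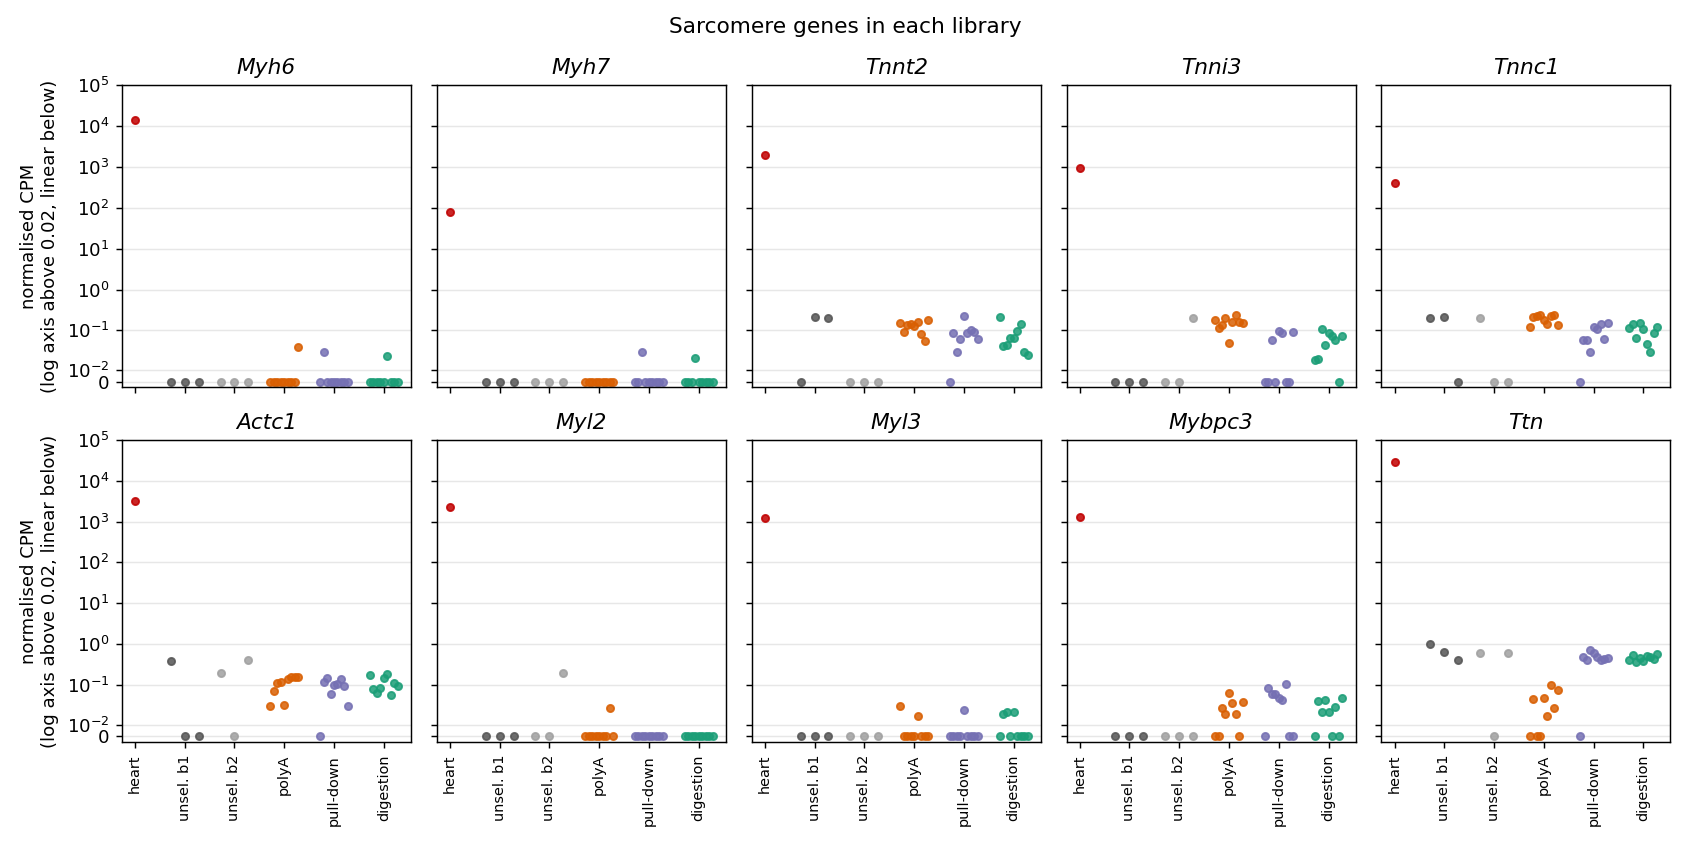
Normalised CPM of each of the 10 genes in each of the 34 libraries, by group (log axis above 0.02, linear below, so that 0 can be shown). The single heart point lies above every liver point of its gene, and Myh6, Myh7, Myl2 and Myl3 are at 0 in most liver libraries.

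A list of 35 other sarcomere, Z-disc and M-band genes was read beside the 10. Of these, 33 could be tested, 32 were higher in heart and 1, the tropomyosin gene Tpm3, was called lower (log2 difference -0.54, SE 0.10, edgeR adjusted p = 0.000143), beside the same 35.5% of all genes that were higher. The Tpm3 difference is small and has no heart replicate behind it (251 counts in heart, 712 over the 3 liver libraries), so whether it exceeds the spread between heart preparations is not known. Their median log2 difference was 10.65, which depends in part on how the fit treats 0 liver counts. Several of them, such as Tcap and Actn2, had 0 counts in batch 1 liver and entered the test because they are high in heart, so this count, too, is a description and not support. Myom3 (9 heart counts) and Mybphl (0) were not tested. The 5 highest per kb in heart were Tpm1, the cardiac tropomyosin (5937 per kb), Tcap, the titin cap protein (3487), Cryab, a small heat shock protein (3062), Csrp3, the muscle LIM protein (2842), and Fhl2, another LIM protein (2537). All 5 lay above Ttn per kb, and Tpm1 also lay above Tnnc1. In the 3 batch 1 liver libraries together, Tpm1 had 223 counts and Csrp3 had 96, against 0 to 10 for each of the 10 genes.

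By profile over the 34 libraries, the 6 genes most like the mean of the 10 were Myom2, Myoz2, Ckmt2, Xirp2, Cox6a2 and Ckm, among 388 genes with at least 1000 heart counts. They encode an M-band protein, a Z-disc protein, muscle creatine kinases (Ckmt2, Ckm), an actin-binding protein and a heart subunit of cytochrome oxidase. Pearson's r was 0.9995 for each. The first 4 had 0 counts in all liver libraries, and Cox6a2 and Ckm had at most 1 and 2. The likeness is that of 1 high point and 33 low ones, so it describes the heart library and nothing finer.

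Pooled over a group, the liver levels were not a fixed share of the heart levels. After polyA selection Tnnc1 stood at 0.0463% of its heart level (interval 0.0367 to 0.0577), Tnni3 at 0.0166%, Tnnt2 at 0.00646%, Actc1 at 0.00339% and Myh6 at 3.41e-05% (interval 4.13e-06 to 0.000123). For a pair chosen after the values were seen, as the lowest share among genes with counts and the highest, the counts were as follows. In heart there were 34.3 Myh6 counts for each Tnnc1 count, and in polyA liver 2 against 79, a ratio of 0.0253 (interval 0.00301 to 0.0945). The same held in the other selected libraries, with 1 Myh6 count against 26 of Tnnc1 after pull-down and 1 against 39 after digestion. The unselected liver libraries held 0 Myh6 counts, which allows a level of up to 0.00146% of that in heart in batch 1 and 0.00143% in batch 2. They held 2 Tnnc1 counts in batch 1 and 1 in batch 2. The interval of the Myh6 to Tnnc1 count ratio was 0 to 5.32 in batch 1. In batch 2 it was 0 to 39.0, which takes in the heart value.

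**Figure D3:**
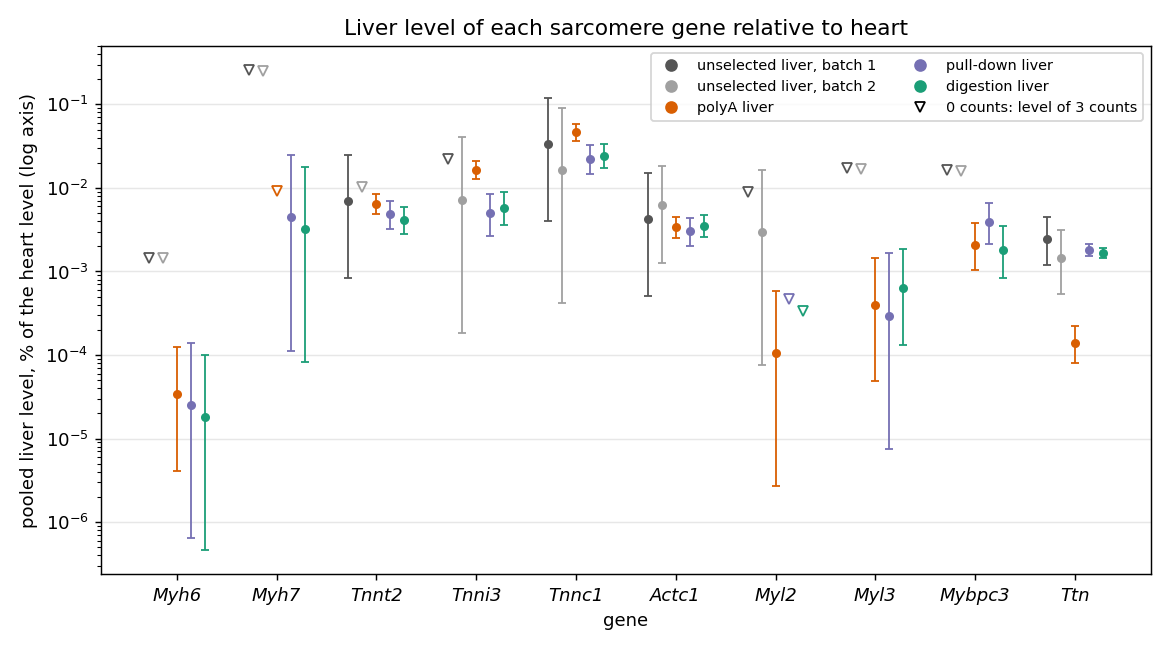
Pooled liver level of each gene as a percentage of its level in the heart library (log axis), by liver group, with exact 95% Poisson intervals; open triangles mark groups with 0 counts at the level that 3 counts would give. Tnnc1 lies highest among genes with counts in every group, Myh6 lies lowest in the pull-down and digestion groups, and the polyA point of Ttn lies below its other groups.

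Across the liver methods, Ttn was the 1 gene of the 10 with enough counts to pass the filter on low counts. It passed through the pull-down and digestion libraries, where it is high, so its presence in the test is not support for a difference. In normalised CPM it stood at 0.683 ± 0.300 in unselected batch 1 (SD, n = 3) and 0.404 ± 0.350 in unselected batch 2 (n = 3), at 0.446 ± 0.195 after pull-down (n = 9), at 0.465 ± 0.0699 after digestion (n = 9) and at 0.0355 ± 0.0364 after polyA selection (n = 9). In counts, the polyA libraries had 0 to 5 (median 1), the pull-down libraries 0 to 24 (median 15) and the digestion libraries 15 to 27 (median 21). Total counts were 23453481 to 41396087 in the polyA libraries and 19984269 to 30169400 in the digestion libraries. The only 0 after pull-down was in the library of 1126377 counts in all. In normalised CPM, all 9 polyA libraries lay below all 3 batch 1 unselected libraries and below all 9 digestion libraries.

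PolyA selection against unselected batch 1 gave a log2 difference of -3.98 in Ttn (SE 0.73, edgeR adjusted p = 3.21e-05), lower in 9 of 9 libraries in normalised CPM. In that comparison 24.8% of the 15422 genes tested were lower. With library totals in place of TMM the difference was -1.37 (edgeR adjusted p = 0.0423), with the median of all genes at 2.67 and 2.30% of genes lower. Not all 9 polyA libraries were lower on library totals: 1 had 5 counts in 33854208, against 2 in 21052796 for 1 unselected library. Over the settings that gave a value the difference ran from -4.25 to -1.37 and the adjusted p from 4.54e-10 to 0.0423. Fitted on the polyA and unselected batch 1 libraries alone, Ttn did not pass the filter and could not be called. The unselected side of this comparison rests on 10 counts (5, 3 and 2). It was made from 20 ng and the polyA libraries from 200 ng, so method and input cannot be told apart. The polyA libraries were then set against the other selected libraries, a comparison added after the data were seen. Ttn was lower than after digestion (log2 difference -3.50, SE 0.31, edgeR adjusted p = 1.30e-11, with 42.2% of genes lower) and lower than after pull-down (-3.59, SE 0.32, adjusted p = 2.61e-11, with 36.2% lower). Those 2 rRNA methods were prepared in batch 2 and polyA selection in batch 1, so method and batch cannot be told apart there.

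**Figure D4:**
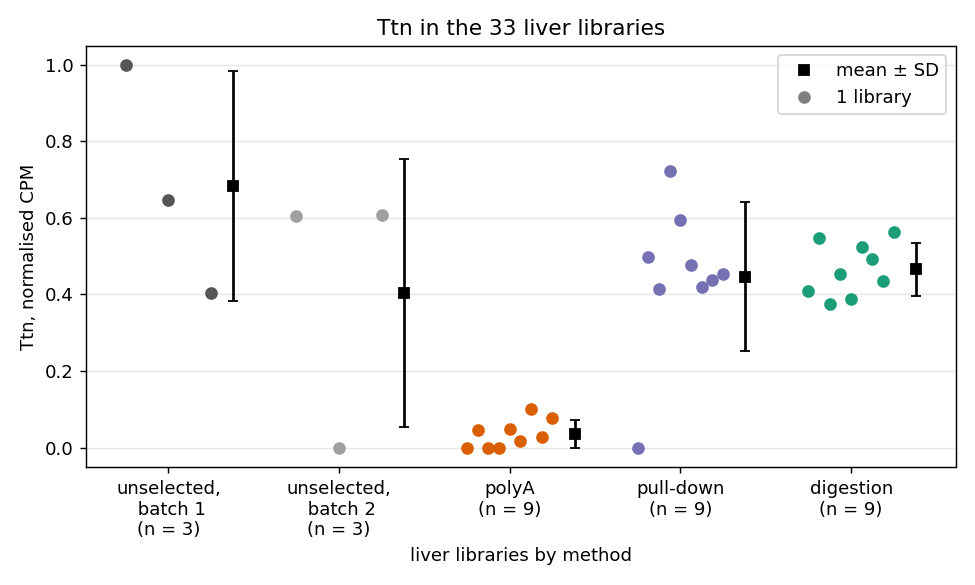
Normalised CPM of Ttn in each of the 33 liver libraries by method (circles), with the mean and SD of each group (squares and bars). The 9 polyA libraries lie at 0 to 0.101 and the 9 digestion libraries at 0.374 to 0.563.

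Neither rRNA method differed detectably from unselected liver in Ttn, in comparisons where input (200 against 20 ng) again goes with method. Pull-down against unselected batch 2 gave 0.36 (SE 0.65, edgeR adjusted p = 0.728, with 32.8% of genes called in either direction) and digestion gave 0.27 (SE 0.65, adjusted p = 0.845, with 14.7% called). Both signs turned when the batch 2 unselected library with 0 Ttn counts was left out (-0.22 and -0.30), and with these errors differences of that size were not detectable at this depth. With library totals in place of TMM both were called higher, by 2.57 and 3.04, with the medians of all genes at 2.31 and 2.85 and with 94.9% and 97.9% of genes higher. Digestion against pull-down, added after the data were seen, gave -0.09 (SE 0.22, adjusted p = 0.731, with 70.7% of genes called). Between the batches of unselected liver, with 5, 3 and 2 counts in batch 1 and 3, 0 and 3 in batch 2, Ttn differed by -0.75 (SE 0.78, edgeR adjusted p = 0.951), where 0% of the genes tested were called. In that batch comparison 848 of 15422 genes had an unadjusted p under 0.05 and DESeq2 called 30.

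The other 9 genes had too few counts for that filter, and without it they could be tested, at 27486 genes. Tnni3 and Tnnc1 were then higher after polyA selection than after digestion, by 1.47 (SE 0.42, edgeR adjusted p = 0.00294) and 0.92 (SE 0.28, adjusted p = 0.00549) on the log2 scale, where 23.3% of genes were higher. Against pull-down they were higher by 1.74 (SE 0.47, edgeR adjusted p = 0.00246) and 1.03 (SE 0.31, adjusted p = 0.00604), where 21.3% of genes were higher. Both comparisons were added after the data were seen, and in both, method and batch cannot be told apart. Tnni3 and Tnnc1 are near the floor in all liver groups. The ranges of the 2 genes overlapped: Tnni3 had 3 to 12 counts after polyA selection and 0 to 5 after digestion, and Tnnc1 4 to 12 and 1 to 7. Tnnt2 and Actc1 were not called in either comparison (edgeR adjusted p from 0.129 for Tnnt2 to 0.911 for Actc1, both against digestion). Against unselected batch 1 liver, where Tnni3 had 0 counts and Tnnc1 had 2 in all, neither was called (edgeR adjusted p = 0.160 and 0.897).

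The make-up of the 10 genes' counts was next set side by side. Ttn held 52.1% of them in heart, 56.1% after pull-down (interval 49.8 to 62.3), 54.5% after digestion (interval 49.0 to 59.96) and 5.84% after polyA selection (interval 3.37 to 9.31). In the unselected liver it held 10 of 16 counts in batch 1 and 6 of 12 in batch 2. Without Ttn, the sum of the other 9 genes in the polyA libraries was 0.620 normalised CPM, compared with 0.393 for pull-down and 0.386 for digestion libraries and 25461 in heart. Myh6, which held 26.5% of the counts in heart, held 0.301 to 0.730% in the selected liver groups.

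**Figure D5:**
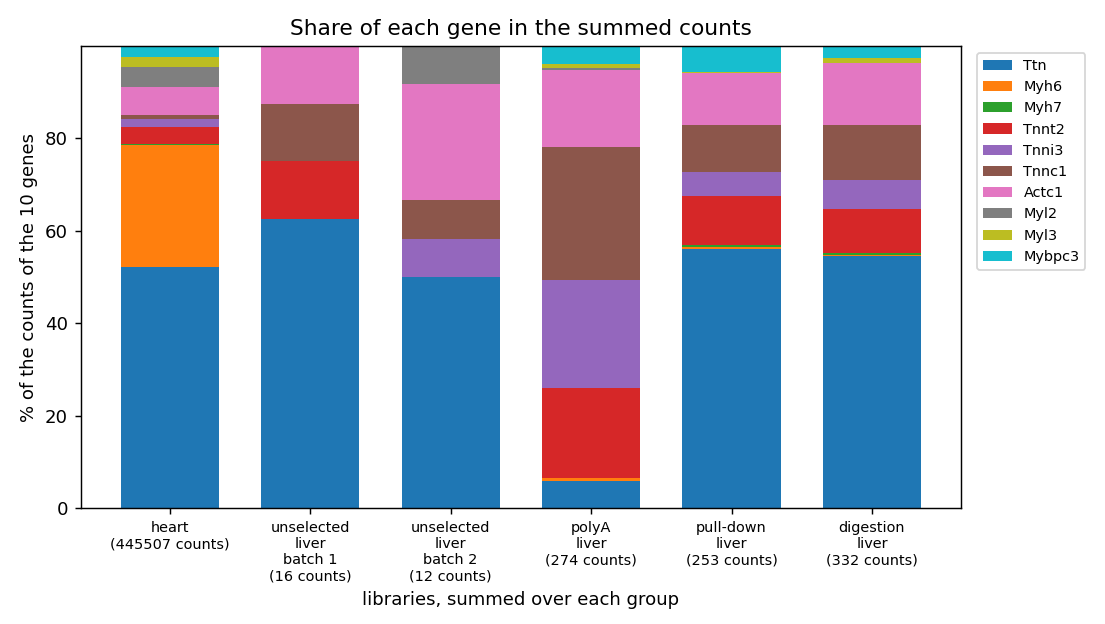
Share of each of the 10 genes in their summed counts, in the heart library and in each liver group. Ttn fills 52.1% of the heart bar and 5.84% of the polyA bar, and Myh6 is a large part of the heart bar only.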

How the data were processed

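The authors deposited 1 table of expected counts per gene and library, which are estimates that need not be whole and were rounded here. The submitters' processing notes name UMI-tools 1.1.1, Salmon 1.9.0, R 4.4.0 and GRCm38. How molecular identifiers were collapsed and how strand was counted are not given in the sources used here. Per the labels' protocols, polyA libraries were made with a stranded mRNA kit, rRNA pull-down with a stranded total RNA kit, and rRNA digestion with a Ribo-Zero Plus kit, all over 13 PCR cycles.

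Gene identifiers matched GENCODE M21 symbols for 50896 of 51368 genes, and the other 472 held at most 0.0452% of a library. Genes annotated as rRNA, with Lars2, numbered 309. Comparisons used edgeR 4.0.16 (limma 3.58.1, R 4.3.3) with TMM, filterByExpr, the quasi-likelihood test and Benjamini-Hochberg adjustment over all genes tested at 0.05. Heart was fitted with the batch 1 unselected liver libraries, and liver methods in 1 fit of 33 libraries that also held terms for the PCR ramp and the fragment length. DESeq2 1.42.0, library totals, no filter, rRNA genes left out and libraries left out were alternatives. Lengths are of the longest protein-coding transcript. The promoter windows of 8 members were searched, and 1 other is not reported here. Coding sequences were aligned with Biopython 1.88. The fits were checked on simulated counts.

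The named genes are the 10 members, their paralogs, 35 other sarcomere genes (values for the 5 highest per kb) and the 6 most alike by Pearson's r of log2(CPM + 0.5). The members and lists were chosen with earlier results of these data known. Comparisons between the selected methods were added after the data were seen. No 2 libraries were identical, and replicates differed beyond sampling noise (chi-square per degree of freedom 1.40 to 3.85).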

Additional observations from a re-analysis of the deposited data

Results flagged for a closer look

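Of 27 sets of 9 libraries (gene by selected liver method), 9 held a library whose gap to the nearest other exceeded Dixon's 95% critical value of 0.493 of the range. Chance gives about 1 in 20 such sets, and for genes at 0 in all but 1 library the rule is met by any single count. Values are normalised CPM. Myh6 stood at 0.039 in polyA library 9 (fast ramp, short fragments, 2 counts), with 0 in the others. It stood at 0.0292 in pull-down library 2 (medium ramp, long fragments), with 1 count and 0 in the others. In digestion library 6 (fast ramp, medium fragments) it stood at 0.0238, again with 1 count and 0 in the others. Myh7 stood at 0.0296 in pull-down library 3 (fast ramp, long fragments) and at 0.0216 in digestion library 4 (slow ramp, medium fragments). Myl2 stood at 0.0269 in polyA library 8 (medium ramp, short fragments), and Myl3 at 0.0248 in pull-down library 5 (medium ramp, medium fragments). Each of these was 1 count, with 0 in the others. Tnnt2 stood at 0.223 in the same pull-down library 5 (9 counts), where the next library had 0.105. Ttn stood at 0 in pull-down library 1 (slow ramp, long fragments), the library of 1126377 counts in all, where the next lowest had 0.414.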

How the results depend on the processing

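Of 204 values recomputed under an alternative, 186 kept their direction and their side of the threshold, among them all 80 for the 10 genes in heart against liver. For Ttn, library totals in place of TMM gave 1 member called after pull-down (2.57, edgeR adjusted p = 7.63e-05) and 1 after digestion (3.04, adjusted p = 3.92e-06) against unselected liver, and 1 between digestion and pull-down, with the sign turned (0.46, adjusted p = 0.0465). Over all alternatives the adjusted p of these ran from 7.63e-05 to 0.916, from 3.92e-06 to 1 and from 0.0465 to 0.824. Leaving out unselected batch 2 libraries in turn gave Ttn log2 differences of -0.22 to 0.78 for pull-down and -0.30 to 0.69 for digestion. The low ends came without replicate 2, which had 0 Ttn counts. PolyA against digestion and against pull-down called 3 members each with DESeq2 and with no filter (Ttn, Tnni3, Tnnc1), where more members were tested. The median heart level of the 10 genes, 1150.0 normalised CPM per kb, was 432 with library totals, 2225 with totals without rRNA genes and Lars2, and 422 with merged exons, and Myh6 to Myh7 moved from 181 to 227 with merged exons. Merged exons moved other heart ratios further: Tnnt2 to Tnnt1 from 521 to 168, Tnnt2 to Tnnt3 from 14866 to 3376, Myl3 to Myl4 from 5066 to 11419, and the bound for Myl2 to Myl7 from 4211 to 1920. PolyA against unselected liver, fitted on those groups alone, gave no value, since no member passed the filter.

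Replicate numbers of the unselected libraries in the 2 batches did not pair them: same-numbered libraries had correlations of 0.05, -0.23 and -0.30 over 6294 genes, and not every library correlated best with its own number. Between batches, 39 genes were called in a fit of those 6 libraries and 82 with the replicate block, against 0 in the fit of all 33; Ttn passed the filter in neither small fit. Limits: 1 animal, 1 heart library, and 0 to 49 counts of the 10 genes in any liver library, so in liver the rank of single genes is set by few counts.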
